A study of Mus musculus with 48 samples.

Results

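The genes examined here encode the voltage-gated sodium and calcium channels of neurons. The set held 30 genes chosen by symbol, of 47569 gene identifiers present in both RNA tables: 7 sodium channel alpha subunits, 3 sodium channel beta subunits, 8 calcium channel alpha1 subunits, 4 alpha2delta subunits, 4 calcium channel beta subunits and a last group of 4. That last group does not match the name strictly, because Nalcn encodes a sodium leak channel and Hcn2, Hcn3 and Hcn4 encode cation channels opened by hyperpolarization. Each of the 30 symbols matched 1 Ensembl identifier in both tables. The study profiled adult C57BL/6J mice of 4 to 6 months that carried a conditional knockout of Setd1b (cKO) or were controls, and the product of Setd1b adds methyl groups to lysine 4 of histone H3. RNA was sequenced from neurons of the hippocampal CA region (3 libraries labelled cKO and 3 labelled control) and from the whole CA region (6 and 6). Histone marks were profiled in sorted, fixed neuronal nuclei of the CA region: H3K4me3 and H3K4me1 in 4 libraries of each genotype, H3K9ac in 3 labelled cKO and 4 labelled control, and H3K27ac in 4 labelled cKO and 3 labelled control. The labels name neither the Cre driver, nor the deleted exons, nor the genotype of the controls beyond that word, and they do not say whether replicates came from separate animals, so p-values measure the spread between these samples.

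Sodium channels carry the rapid inward current of the action potential. Their alpha subunit forms the pore, and beta subunits bind to it and set its gating and its place in the membrane. In calcium channels the alpha1 subunit forms the pore and defines the current type (P/Q, N, L, R or T), while alpha2delta and beta subunits control trafficking and gating, and calcium entry through these channels drives transmitter release, dendritic signals, burst firing and activity-dependent transcription in hippocampal pyramidal cells. H3K4me3 marks active start sites, and H3K4me1 lies at their flanks and at enhancers.

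Each neuron library held 55735204 to 69071100 counted reads, and each whole CA library 14878128 to 20100286. H3K4me3 libraries held 24.4 to 27.8 M tags (M, mega), H3K4me1 libraries 29.6 to 35.5 M, H3K27ac libraries 37.0 to 41.6 M and H3K9ac libraries 35.7 to 39.0 M. The mitochondrial share was 0.00814 to 0.0144% of the reads of neuron libraries, against 3.41 to 7.05% in whole CA libraries. Whole-gene counts of the targeted gene went against the labels: Setd1b did not differ past the threshold in neuron RNA (log2 fold change 0.25, SE 0.13, adjusted p = 0.357 by edgeR) and was higher in whole CA libraries labelled cKO (0.59, SE 0.12, adjusted p = 0.00605 by edgeR). Within lanes of whole CA RNA it was 0.49 among replicates 1 to 3 (adjusted p = 0.136 by edgeR, not called) and 0.69 among replicates 4 to 6 (adjusted p = 0.01 by edgeR). Neuron RNA held 60.2, 62.0 and 71.6 CPM (reads scaled to a common library size) in libraries labelled cKO and 65.5, 50.2 and 47.8 CPM in control libraries, and whole CA RNA 53.2 to 68.0 CPM (median 57.4) and 29.3 to 54.6 CPM (median 37.9). Counts over the whole gene do not show the loss of single exons, so every direction below is that of libraries labelled cKO against libraries labelled control. Neuron RNA held low levels of glial and vascular markers, with astrocyte markers (4 genes) summing to 12.5 to 17.1 CPM against 650 to 950.1 CPM in whole CA RNA. No marker had a mean of 0 in either genotype of neuron RNA. In bulk samples such as these, fewer cells of a type and less RNA per cell cannot be told apart.

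Start sites were taken from RefSeq promoters (GRCm38.p6), which matched 23 of the 30 genes with 33 promoters. Hcn3, Cacna2d4, Cacna1g, Scn3b, Cacna1h, Cacna1a and Scn3a had no entry. The 250 bases before the start are printed for 5 genes with 1 listed start each: 3 whose H3K4me3 peak was shorter in cKO libraries (Cacna1e, Cacna1i, Cacna2d1), Scn4b as the only gene with both a lower RNA level and an entry, and Nalcn, whose peak did not differ past the threshold. Sequences read 5′ to 3′ on the gene's strand, and capitals mark CpG dinucleotides.
Cacna1e (chr1:154725921-154726170, minus strand): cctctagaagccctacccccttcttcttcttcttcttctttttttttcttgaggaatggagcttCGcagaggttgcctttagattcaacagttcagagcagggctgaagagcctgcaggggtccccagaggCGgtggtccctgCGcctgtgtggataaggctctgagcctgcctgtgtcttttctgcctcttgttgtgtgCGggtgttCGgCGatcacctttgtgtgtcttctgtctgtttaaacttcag
Cacna1i (chr15:80286988-80287237, plus strand): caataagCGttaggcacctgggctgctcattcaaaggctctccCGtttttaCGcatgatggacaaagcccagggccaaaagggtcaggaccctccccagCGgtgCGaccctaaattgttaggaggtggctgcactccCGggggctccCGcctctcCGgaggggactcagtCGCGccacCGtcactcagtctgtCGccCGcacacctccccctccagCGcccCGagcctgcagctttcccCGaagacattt
Cacna2d1 (chr5:15934441-15934690, plus strand): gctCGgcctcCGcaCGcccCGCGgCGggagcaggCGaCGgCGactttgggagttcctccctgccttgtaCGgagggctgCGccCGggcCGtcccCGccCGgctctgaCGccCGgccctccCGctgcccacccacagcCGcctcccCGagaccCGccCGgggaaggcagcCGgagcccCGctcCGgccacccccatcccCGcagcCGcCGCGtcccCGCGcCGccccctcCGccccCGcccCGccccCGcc
Scn4b (chr9:45138374-45138623, plus strand): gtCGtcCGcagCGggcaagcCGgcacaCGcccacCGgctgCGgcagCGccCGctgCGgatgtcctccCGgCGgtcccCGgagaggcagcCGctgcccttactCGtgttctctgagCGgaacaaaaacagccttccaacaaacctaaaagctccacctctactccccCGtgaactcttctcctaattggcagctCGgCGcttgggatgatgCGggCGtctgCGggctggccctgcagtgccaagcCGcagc
Nalcn (chr14:123627145-123627394, minus strand): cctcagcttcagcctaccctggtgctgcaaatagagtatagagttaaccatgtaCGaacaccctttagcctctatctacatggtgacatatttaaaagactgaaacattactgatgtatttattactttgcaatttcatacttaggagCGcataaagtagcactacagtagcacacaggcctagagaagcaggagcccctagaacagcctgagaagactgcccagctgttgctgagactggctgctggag
The 5 stretches held 6, 16, 36, 23 and 2 CpG dinucleotides, beside a median of 6 over 32851 promoters of the table. Shorter H3K4me3 peaks therefore occurred at a CpG-rich start (Cacna2d1) and at a start with the median number (Cacna1e). The listed Cacna1e start lies 159 kb inside the annotated gene. A GC box, searched as GGGCGG on both strands, was in 13 of the 33 channel promoters (39.4%) and in 32.7% of all promoters.

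The RNA comparison asked which channel genes differed between genotypes. In neuron RNA 4 of 29 tested genes were lower (Scn3b, Scn4b, Cacna1g and Hcn3) and 1 was higher (Cacna2d4), where 2.19% of all 19622 tested genes were lower and 0.887% higher at an edgeR adjusted p under 0.05. In whole CA RNA 2 of 29 were lower (Scn3b and Cacna1g) and 0 higher, where 2.84% of 15362 genes were lower and 1.41% higher. Scn4a, the muscle sodium channel, was the gene that did not pass the filter on low counts, with 0 to 0.305 CPM over the 18 libraries. The median log2 fold change of the 29 genes was −0.05 in neuron RNA and −0.02 in the whole CA, beside 0.02 and −0.00272 over all genes. There were 18 negative and 11 positive values in neuron RNA and 17 and 12 in whole CA RNA. Over all genes 9129 were negative and 10493 positive in neuron RNA, and 7797 and 7565 in whole CA RNA. At an unadjusted p under 0.05, 8 of the 29 passed in neuron RNA, where 17% of all genes did, and 6 of the 29 in whole CA RNA, where 15.6% did. All 8 calcium alpha1 genes had negative log2 fold changes in whole CA RNA and 7 of 8 in neuron RNA, although 1 of them (Cacna1g) passed the test in each. The class median was −0.07 in whole CA RNA, with values up to −0.02, and −0.22 in neuron RNA. The class was picked out after its values were seen. Across the 29 genes the log2 fold changes of both materials, which share no library, had a Pearson r of 0.61 and a Spearman rho of 0.71, and 22 had the same sign.

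**Figure D1:**
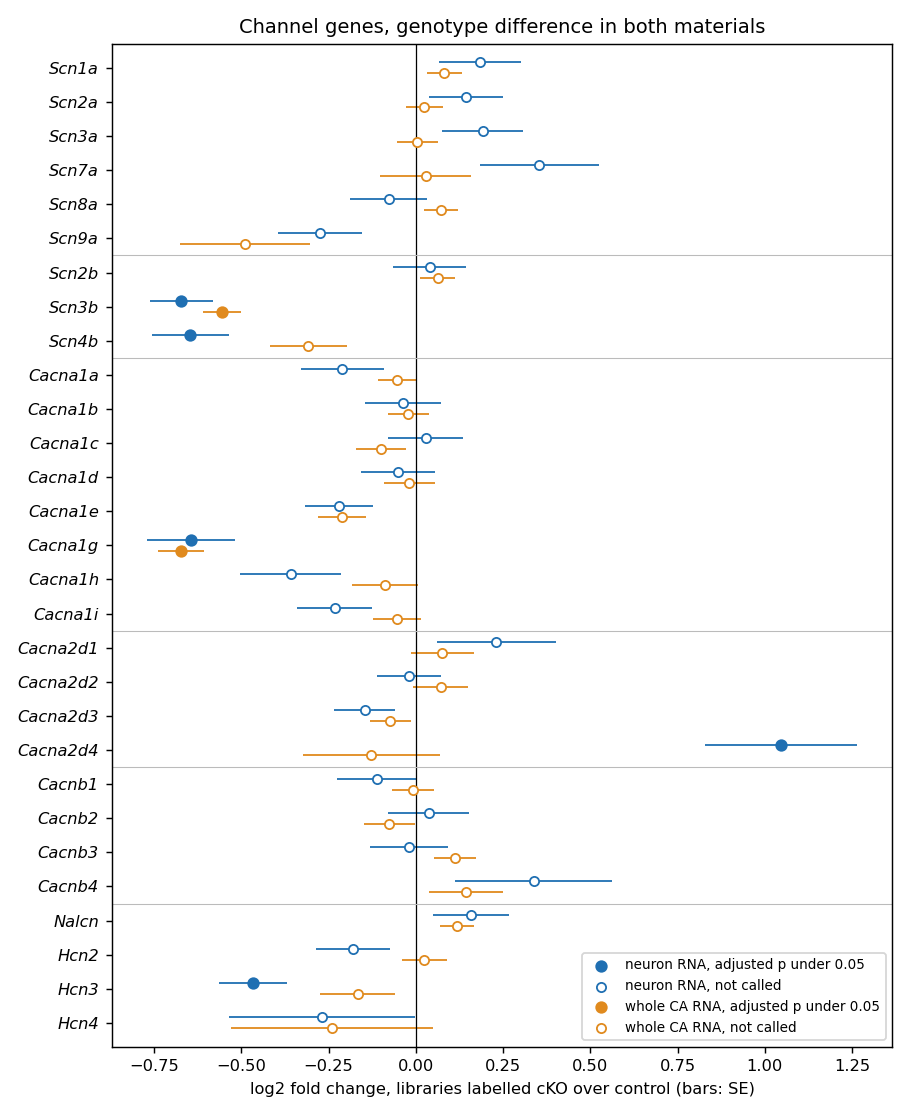
Log2 fold change of 29 channel genes (x axis; libraries labelled cKO over control; bars are SE) in neuron RNA (blue) and whole CA RNA (orange), ordered by subunit class with grey lines between classes. Filled points have an edgeR adjusted p under 0.05: Scn3b and Cacna1g are filled in both materials, and Scn4b, Hcn3 and Cacna2d4 in neuron RNA.

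Among sodium channel genes the differences lay in the beta subunits. Scn3b (ENSMUSG00000049281, chr9:40269216-40291618) encodes beta3, a subunit that modulates inactivation. In neuron RNA it stood at 325, 303 and 332 CPM in libraries labelled cKO and at 516, 515 and 497 CPM in libraries labelled control, and the groups did not overlap. The share of all genes whose groups did not overlap was not counted. Statements on overlap, here and below, therefore only describe the values and add no evidence to the tests. The log2 fold change was −0.67 (SE 0.09, adjusted p = 0.00243 by edgeR). In whole CA RNA the lowest, median and highest values were 216, 237 and 265 CPM in cKO libraries and 319.7, 350.3 and 372 CPM in control libraries. Again no cKO library reached a control library. The log2 fold change there was −0.56 (SE 0.06, adjusted p = 1.51e-06 by edgeR), with −0.50 among replicates 1 to 3 (1 lane) and −0.61 among replicates 4 to 6 (the other), called in both.

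Scn4b (ENSMUSG00000046480, chr9:45138624-45154155) encodes beta4, known for its part in resurgent sodium current. Neuron RNA held 12.7, 13.7 and 13.6 CPM in cKO libraries and 19.2, 24.01 and 19.3 CPM in control libraries. Every cKO library was below every control library, with a log2 fold change of −0.65 (SE 0.11, adjusted p = 0.01 by edgeR). Without cKO replicate 1 the call ended (−0.61, adjusted p = 0.0816 by edgeR). In whole CA RNA Scn4b ranged from 17.8 through a median of 22.8 to 27.5 CPM in cKO libraries and from 22.97 through 27.7 to 33.7 CPM in control libraries. These ranges overlapped, and the log2 fold change of −0.31 (SE 0.11) had an edgeR adjusted p of 0.148. Within lanes it was −0.32 and −0.30. It was called in 2 alternatives, with the lane as a covariate (adjusted p = 0.0191 by edgeR) and with the replicate block, and not in the other 21. Scn2b encodes beta2, a partner covalently linked to the pore, and its gene lies next to Scn4b at chr9:45117876-45130070. Its log2 fold change was 0.04 (SE 0.10) in neuron RNA and 0.06 (SE 0.05) in whole CA RNA, and neither passed.

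None of the 6 tested sodium channel pore genes was called in either material by edgeR, and 1 had an unadjusted p under 0.05 in each (Scn9a). Scn1a, Scn2a, Scn3a, Scn7a and Scn9a lie on chromosome 2 between 65457118 and 66784910. Their log2 fold changes spanned −0.28 (Scn9a) to 0.35 (Scn7a) in neuron RNA. Scn8a, which encodes Nav1.6 of the axon initial segment, had 658, 599.5 and 733 CPM in cKO libraries and 769.5, 654 and 676 CPM in control libraries of neuron RNA. The groups overlapped, at a log2 fold change of −0.08 (SE 0.11, adjusted p = 0.756 by edgeR), and whole CA RNA gave 0.07 (SE 0.05, adjusted p = 0.524 by edgeR). Scn9a encodes Nav1.7, best known from sensory neurons. It had 23.1, 24.8 and 19.5 CPM in cKO and 23.6, 27.8 and 30.2 CPM in control libraries of neuron RNA (log2 fold change −0.28, SE 0.12, adjusted p = 0.275 by edgeR). Whole CA RNA held medians of 2.23 and 3.04 CPM (log2 fold change −0.49, SE 0.19, adjusted p = 0.179 by edgeR).

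Among calcium channel pore genes, the T-type gene Cacna1g was lower. Cacna1g (ENSMUSG00000020866, chr11:94408391-94474400) encodes Cav3.1, a low-voltage-activated channel that supports burst firing. Neuron RNA held 179, 167 and 199 CPM in cKO libraries and 336, 243 and 272 CPM in control libraries. The groups did not overlap, at a log2 fold change of −0.64 (SE 0.13, adjusted p = 0.0216 by edgeR). Whole CA RNA ranged from 47.7 through a median of 49.2 to 54.9 CPM in cKO libraries and from 72.1 through 79.7 to 92.1 CPM in control libraries. Here too the ranges were apart, with a log2 fold change of −0.67 (SE 0.07, adjusted p = 1.35e-06 by edgeR), and within lanes it was −0.75 and −0.60, called in both. The neuron call was lost without cKO replicate 1, cKO replicate 2 or control replicate 3, where the edgeR adjusted p rose to 0.145, 0.0964 and 0.0539 at log2 fold changes of −0.63, −0.60 and −0.69.

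The other T-type genes were not called. Cacna1h (Cav3.2) had a log2 fold change of −0.36 (SE 0.14, adjusted p = 0.248 by edgeR) in neuron RNA and −0.09 (SE 0.09) in whole CA RNA. Cacna1i (Cav3.3) had −0.23 (SE 0.11) and −0.05 (SE 0.07). Cacna1e encodes the R-type channel Cav2.3. It stood at 907, 845 and 955 CPM in cKO and at 1026, 1021 and 1108 CPM in control libraries of neuron RNA. Although these groups did not overlap, the log2 fold change of −0.22 (SE 0.10) had an edgeR adjusted p of 0.284. In whole CA RNA Cacna1e ranged from 338 to 428 CPM (median 397) in cKO and from 406 to 537 CPM (median 436) in control libraries (log2 fold change −0.21, SE 0.07, adjusted p = 0.102 by edgeR), with −0.22 and −0.20 within lanes. It was called in 2 alternatives, with no filter on low counts (adjusted p = 0.0384 by edgeR) and with the replicate block, and not in the other 21. The P/Q-type gene Cacna1a, the N-type gene Cacna1b and the L-type genes Cacna1c and Cacna1d had log2 fold changes from −0.21 to 0.03 in neuron RNA and from −0.10 to −0.02 in whole CA RNA, and none passed.

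Of the auxiliary calcium channel genes, 1 was called. Cacna2d4 (ENSMUSG00000041460, chr6:119236524-119352407) encodes the alpha2delta4 subunit, known from photoreceptors. It was close to the limit of detection in neuron RNA, at 1.13, 1.14 and 1.30 CPM in cKO libraries (73 to 75 reads) and 0.447, 0.601 and 0.669 CPM in control libraries (27 to 46 reads). The groups did not overlap, at a log2 fold change of 1.05 (SE 0.22, adjusted p = 0.0281 by edgeR). Leaving out cKO replicate 1, cKO replicate 2 or any control replicate ended this call, with edgeR adjusted p-values of 0.0548 to 0.112 and log2 fold changes of 0.90 to 1.17. In whole CA RNA Cacna2d4 had medians of 1.76 CPM in cKO and 1.88 CPM in control libraries, and the ranges overlapped (log2 fold change −0.13, SE 0.20, adjusted p = 0.845 by edgeR). The gene Lrtm2 lies within it, at 52.6 and 52.2 CPM in cKO and control neuron RNA. Whether counting used strand is not given in the sources used here, so reads of overlapping genes may not be told apart.

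Cacna2d1 encodes alpha2delta1, the target of gabapentin. In neuron RNA it had 527, 514 and 439 CPM in cKO libraries and 306, 508 and 447 CPM in control libraries, with control replicate 1 lowest (log2 fold change 0.23, SE 0.17, adjusted p = 0.533 by edgeR). Cacna2d2 and Cacna2d3 gave −0.02 (SE 0.09) and −0.15 (SE 0.09) in neuron RNA. The Cacna2d3 groups did not overlap (189 to 206 CPM in cKO and 209 to 226 CPM in control libraries), but the gene was not called (adjusted p = 0.426 by edgeR). None of the 4 beta subunit genes, whose products bring the pore to the membrane, was called in either material by edgeR, and 0 of them had an unadjusted p under 0.05. Cacnb2 stood at 221, 177 and 166 CPM in cKO and at 171, 192 and 187 CPM in control libraries of neuron RNA, and the groups overlapped. Its log2 fold change was 0.04 (SE 0.12, adjusted p = 0.901 by edgeR), and whole CA RNA gave −0.08 (SE 0.07, adjusted p = 0.707 by edgeR). Cacnb3 had 142, 141 and 148 CPM in cKO and 171, 131 and 136 CPM in control libraries (log2 fold change −0.02, SE 0.11, adjusted p = 0.945 by edgeR), and whole CA RNA gave 0.11 (SE 0.06, adjusted p = 0.392 by edgeR).

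Outside the strict channel classes, Hcn3 was lower in neuron RNA. Hcn3 (ENSMUSG00000028051, chr3:89146775-89160284) encodes a subunit of the hyperpolarization-activated current. It had 21.2, 22.7 and 21.7 CPM in cKO and 33.2, 27.2 and 30.4 CPM in control libraries. The groups did not overlap, at a log2 fold change of −0.47 (SE 0.10, adjusted p = 0.0276 by edgeR). Without any 1 of cKO replicates 1 to 3 or control replicate 3 the call ended, at edgeR adjusted p-values of 0.0569 to 0.143 and log2 fold changes of −0.50 to −0.45. Whole CA RNA ranged from 9.26 to 13.2 CPM (median 10.6) in cKO and from 10.5 to 15.04 CPM (median 12.01) in control libraries, which overlapped (log2 fold change −0.17, SE 0.11, adjusted p = 0.514 by edgeR). Nalcn had 204, 225 and 202 CPM in cKO and 162, 210 and 193 CPM in control neuron RNA (log2 fold change 0.16, SE 0.11, adjusted p = 0.497 by edgeR), and 0.12 (SE 0.05, adjusted p = 0.234 by edgeR) in whole CA RNA. Hcn2 and Hcn4 gave −0.18 (SE 0.11) and −0.27 (SE 0.27) in neuron RNA.

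**Figure D2:**
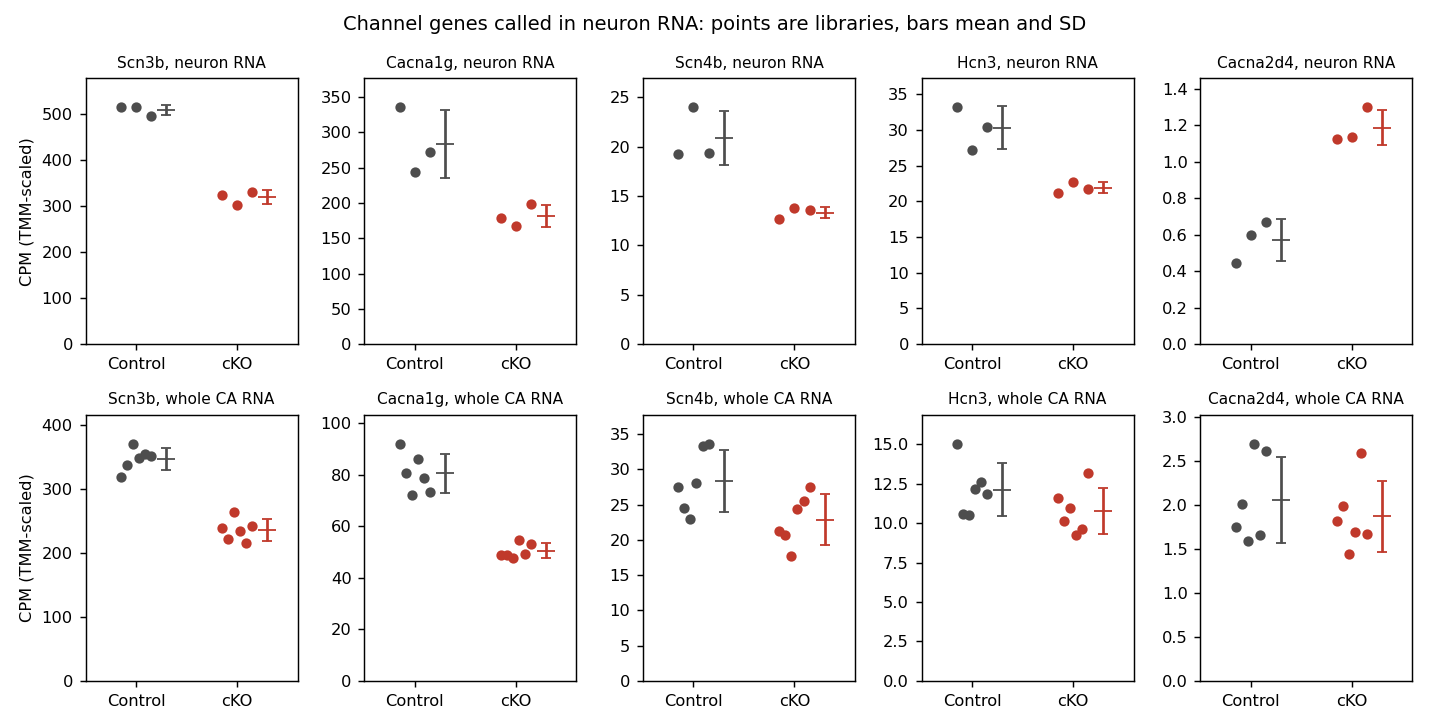
TMM-scaled CPM (y axis, from 0) of the 5 channel genes called in neuron RNA, with 1 point per library (grey control, red cKO) and the mean with SD beside them; the upper row is neuron RNA and the lower row whole CA RNA. Scn3b and Cacna1g do not overlap between genotypes in either row, while Scn4b, Hcn3 and Cacna2d4 overlap in whole CA RNA.

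Summed over each class, the sodium beta genes were at 529 to 585 CPM in cKO and 726 to 764 CPM in control neuron RNA. Scn3b carried that sum (303 to 332 against 497 to 516 CPM), and Scn2b overlapped between genotypes. The calcium alpha1 genes summed to 2219 to 2624 CPM and 2623 to 3064 CPM, where the groups met at the edge. Of these genes Cacna1e (845 to 955 against 1021 to 1108 CPM) and Cacna1g (167 to 199 against 243 to 336 CPM) did not overlap, and the others did. Sodium alpha genes summed to 1881 to 1989 CPM in cKO and 1783 to 1904 CPM in control neuron RNA, so that class overlapped. Summed over all 30 genes, neuron libraries labelled cKO held 6418 to 6699 CPM and control libraries 6950 to 7029 CPM, which did not overlap. Whole CA libraries held 4210 to 4583 and 4415 to 4710 CPM, which did. Scn3b, Cacna1e and Cacna1g had the largest falls in mean CPM in neuron RNA. The sum is therefore not a result separate from those given by gene. The median log2 fold change of the 29 tested genes was −0.05 in neuron RNA, with 18 negative and 11 positive values, beside 9129 and 10493 over all genes. Marker sums of cell types are given beside these results. In neuron RNA the summed excitatory markers (4 genes) were 2444 to 2798 CPM in cKO and 2795 to 3326 CPM in control libraries, and 2 of 4 were called lower, Neurod6 (153 CPM to 32.3 CPM) and Nrgn. CA2 or CA3 markers (4 genes) were 188 to 190.3 CPM against 213 to 232 CPM. Amigo2 and Bok were called lower, and Rgs14 (0.03) and Cpne4 (−0.21) were not called. CA1 markers (3 genes) were 486 to 554 CPM against 585 to 669.6 CPM, carried by Wfs1 (log2 fold change −1.11). Fibcd1 and Mpped1, both at −0.08, were not called. Dentate granule markers (3 genes) were 112 to 146 CPM against 148 to 174 CPM, with C1ql2 and Dsp called lower and Prox1 at −0.02. Pan-neuron markers (3 genes, 2588 to 3024 against 2323 to 2826 CPM) and interneuron markers (6 genes, 501 to 653 against 504 to 599 CPM) overlapped. Meningeal fibroblast markers (3 genes) were 12.9 to 15.4 CPM in cKO and 42.2 to 52.1 CPM in control neuron RNA, carried by Dcn. In whole CA RNA the CA1 markers overlapped (695 to 794 against 705 to 765 CPM), and the CA2 or CA3 markers did not (287 to 342 against 356 to 421 CPM). Microglia markers (4 genes, Cx3cr1 called lower) were 218 to 241 CPM in cKO and 243 to 303 CPM in control libraries of that material. Meningeal fibroblast markers were 15.3 to 21.1 against 51.9 to 88.1 CPM, again carried by Dcn. Choroid plexus markers (2 genes) were 15.5 to 20.2 against 28.2 to 36.4 CPM. Kl carried that sum (log2 fold change −1.04), and Ttr (−0.28) was not called. Kl was also called lower in neuron RNA (−1.07), where Ttr averaged 0.10 CPM in each genotype. The astrocyte markers of whole CA RNA overlapped (650 to 781 against 755 to 950.1 CPM), with 4 of 4 negative and Aqp4 called lower. The part of these markers in the channel gene differences was not tested.

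Whether the genotype difference of a channel gene differed between materials was tested with the interaction in 1 fit of all 18 RNA libraries. Of 29 channel genes 0 were called by edgeR, where 0.194% of all 17523 genes were, and 1 had an unadjusted p under 0.05, where 7.99% of all genes did. That gene was Cacna2d4, with a difference of 1.18 on the log2 scale (SE 0.31, adjusted p = 0.228 by edgeR), which DESeq2 called (adjusted p = 0.0491). For Scn3b the difference was −0.11 (SE 0.10), for Cacna1g 0.03 (SE 0.13), for Scn4b −0.33 (SE 0.18) and for Hcn3 −0.30 (SE 0.16). The calls of Scn4b and Hcn3 in neuron RNA alone therefore do not show that these genes differed between materials.

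H3K4me3 was compared as the total length of the peaks that overlap the region within 1 kb of any listed start. Of 22 channel genes tested, 12 had shorter peaks in cKO libraries and 0 longer peaks, where 23.8% of 14200 genes were shorter and 0.824% longer at a limma adjusted p under 0.05. Genes were also split by the length of their control peaks. Among all 3401 genes with a control mean of at least 3000 bp, 62.7% were shorter, and 11 of the 12 channel genes of that length were. Of the 10 channel genes with shorter control peaks, 1 (Scn2b) was called, where 11.5% of all genes of that length were. The same control libraries set this split and entered the test, which favours calls of shortening among long control peaks. The split therefore does not test whether length mattered. The median log2 difference was −0.21 over channel genes and −0.09 over all genes. Since a single input library served each genotype (31.3 M tags for cKO, and 28.8 M tags for the control), input and genotype cannot be told apart. With each library centred on its median the split over all genes moved from 3373 shorter and 117 longer to 1956 and 985, and 8 channel genes remained shorter while Cacna2d2 was called longer.

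The 4 channel genes with the largest fall were Cacna1e, Cacna1c, Cacna1i and Cacna2d1, picked after their values were seen. At Cacna1e the peaks measured 2053, 3627, 2308 and 2205 bp in cKO libraries 1 to 4 and 6185, 6100, 6296 and 5777 bp in control libraries. No cKO library reached a control library (log2 difference −1.26, SE 0.16, limma adjusted p = 0.0011). At Cacna1c they measured 2773, 4113, 3611 and 4018 bp in cKO and 5934, 6717, 5694 and 6339 bp in control libraries over 3 starts, again apart (log2 difference −0.76, SE 0.12, limma adjusted p = 0.00338). At Cacna1i the cKO libraries had 2069, 2126, 2323 and 2400 bp and the control libraries 3478, 3614, 3547 and 3512 bp, which spread by less than the gap between them (log2 difference −0.65, SE 0.05, limma adjusted p = 0.000116). At Cacna2d1 the values were 3173, 3482, 3519 and 3300 bp in cKO and 4935, 4963, 5673 and 5574 bp in control libraries (log2 difference −0.63, SE 0.06, limma adjusted p = 0.000276). These 4 held with each library centred on its median and in the lane of replicates 1 to 3, with log2 differences of −1.23, −0.80, −0.68 and −0.60 in that lane; the other lane held 1 library of each genotype and gave no value. Counting only the length within 2.5 kb of a start, Cacna1e (−0.25) and Cacna2d1 (−0.25) were still called, while Cacna1c (−0.08) and Cacna1i (−0.23) were not.

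The sequences printed above for Cacna1e, Cacna1i and Cacna2d1 are the bases before the start sites at which these peaks were measured, and none of the RNAs of the 4 genes was called. Cacnb2, Cacna2d3, Scn8a, Scn2a, Scn2b, Cacna1d, Cacnb3 and Cacnb4 made up the 12, with log2 differences of −0.52 to −0.12. In the lane of replicates 1 to 3 Scn2a and Cacnb4 were not called, and with libraries centred Scn2b, Cacna1d, Cacnb3 and Cacnb4 were not, Cacnb4 at 0.00. The Cacnb4 call ended in 11 of 15 alternatives, among them the removal of any 1 library (limma adjusted p of 0.0501 to 0.0843, log2 differences of −0.12 to −0.11). The Cacna1d call ended in 7 of 15, among them without cKO replicate 3 or control replicates 2, 3 or 4 (limma adjusted p of 0.0524 to 0.0598, log2 difference −0.22 in each). Leaving out 1 library ended none of the other 10 calls. The Cacnb2 and Cacna2d3 calls each ended in 1 of 15 alternatives. Over all settings their log2 differences ran from −0.58 to −0.20 and from −0.48 to −0.06. Scn4b, the entry with a lower RNA level, had peaks of 1232, 1735, 1500 and 1594 bp in cKO and 1815, 1826, 1761 and 1846 bp in control libraries. They did not overlap but missed the threshold (log2 difference −0.25, SE 0.09, limma adjusted p = 0.0847). Scn4b was called in 1 alternative, without cKO replicate 2 (limma adjusted p = 0.0338), and not in the other 14. Nalcn stayed at 1657 to 1913 bp in cKO and 1780 to 1844 bp in control libraries. Across the 22 genes, which share libraries within each assay, the RNA and H3K4me3 differences had a Pearson r of 0.22 and a Spearman rho of 0.17.

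**Figure D3:**
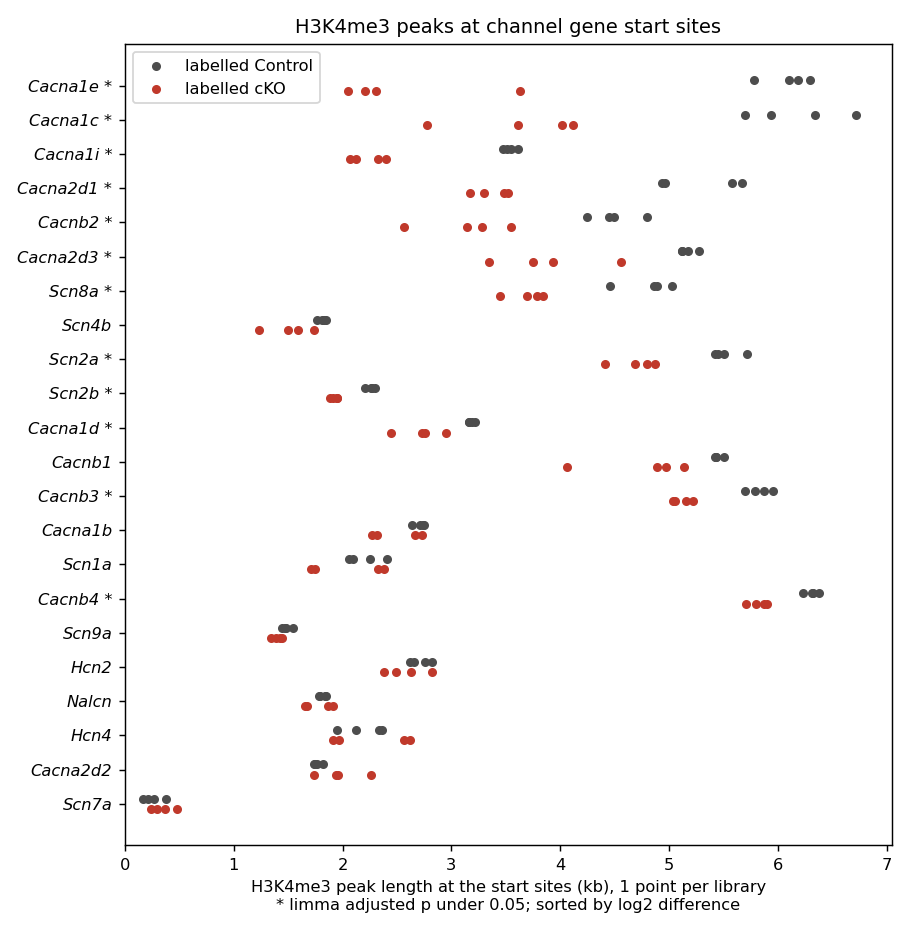
H3K4me3 peak length at the start sites of 22 channel genes (x axis, kb), 1 point per library, control in grey and cKO in red, sorted by log2 difference with the largest fall on top. Asterisks mark the 12 genes with a limma adjusted p under 0.05; at Cacna1e the cKO libraries lie between 2053 and 3627 bp and the control libraries between 5777 and 6296 bp.

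**Figure D4:**
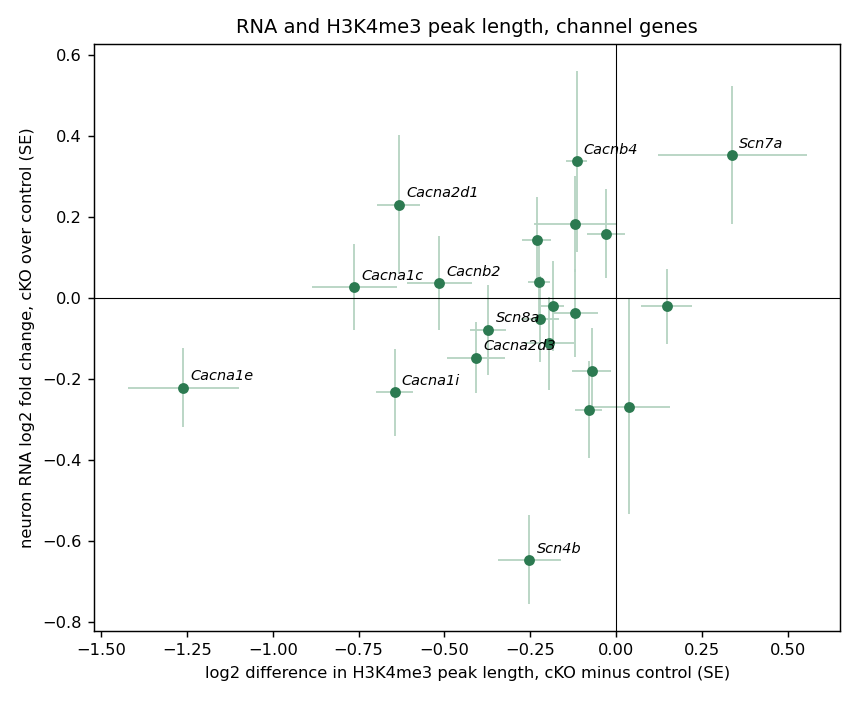
Neuron RNA log2 fold change (y axis) against the log2 difference in H3K4me3 peak length (x axis) for 22 channel genes, with SE bars. Cacna1e, Cacna1c, Cacna1i and Cacna2d1 lie far left with RNA changes between −0.23 and 0.23, and Scn4b lies lowest at −0.65.

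The other marks were measured in the same way. For H3K9ac 0 of 21 channel genes were called by limma, where 1.21% of 14421 genes were, and 8 had an unadjusted p under 0.05, where 14.9% of all genes did. The median log2 difference was −0.24, beside −0.06 over all genes. For H3K27ac 0 of 21 were called by limma, where 0.567% of 13934 genes were, and 2 had an unadjusted p under 0.05, where 11% of all genes did. These were Cacna1i (−0.59, limma adjusted p = 0.165) and Cacna1e (0.90, limma adjusted p = 0.275), the latter with 9425 ± 2470 bp (SD, n = 4) in cKO and 4838 ± 109 bp (SD, n = 3) in control libraries. The Cacna1e difference was called in 1 alternative, without cKO replicate 2 (1.123, limma adjusted p = 0.00731), and not in the other 8. It was positive in all settings (0.82 to 1.123), opposite in sign to its H3K4me3 difference.

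H3K4me1 peaks were longer at 4 of 22 channel genes (Cacnb2, Scn2b, Cacna2d1 and Scn7a) and shorter at 0, where 1.68% of 16938 genes were longer and 3.67% shorter. At Cacnb2 they measured 17788, 18804, 13754 and 14682 bp in cKO and 4226, 3853, 2044 and 4580 bp in control libraries. Every cKO library exceeded every control library (log2 difference 2.16, SE 0.27, limma adjusted p = 0.00335). At Cacna2d1 the values were 2952, 3569, 3530 and 3679 bp in cKO and 2295, 1293, 1228 and 1112 bp in control libraries (log2 difference 1.21, SE 0.23, limma adjusted p = 0.0244). At Scn2b they were 7887, 7686, 8262 and 8289 bp against 2121, 2121, 4752 and 2284 bp (log2 difference 1.56, SE 0.26, limma adjusted p = 0.0149), and at Scn7a the log2 difference was 1.17 (SE 0.21, limma adjusted p = 0.0216). Of these, Cacnb2, Cacna2d1 and Scn2b, also had shorter H3K4me3 peaks. In the lane of replicates 2 to 4 Cacnb2 (2.20, limma adjusted p = 0.0274) and Cacna2d1 (1.496, limma adjusted p = 0.00365) were called, Scn2b (1.47) and Scn7a (1.08) were not, and Cacna1d (2.32, limma adjusted p = 0.00097) was; the other lane held 1 library of each genotype. Leaving out single libraries ended the calls of Cacna2d1 (without cKO replicates 2, 3 or 4 or control replicates 2, 3 or 4) at limma adjusted p-values of 0.0582 to 0.0703, and of Scn7a (without cKO replicates 1, 2 or 4 or control replicates 1, 2 or 3) at 0.0515 to 0.0642.

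Control libraries of both materials were compared to describe where the channel RNAs were higher. Of 29 genes 19 were higher in neuron RNA and 6 lower, where 43.1% of 17523 genes were higher and 39.7% lower; the material, its preparation and its sequencing cannot be told apart. All 8 calcium alpha1 genes and all 6 tested sodium alpha genes were higher, also under each other scaling. Neuron markers were mixed in this contrast. Called lower in neuron RNA were 4 of 4 excitatory, 2 of 3 pan-neuron, 4 of 6 interneuron, 2 of 3 CA1 and 3 of 4 CA2 or CA3 markers. Called higher were 3 of 3 dentate granule, 1 interneuron and 1 CA2 or CA3 marker. A higher or lower level here therefore does not place a gene inside or outside neurons. Scn2a was not called without control neuron replicate 2 (0.16), nor Scn8a and Hcn4 without control neuron replicate 1 (0.14 and 0.56). Scn9a had the largest difference, with 24.99 ± 2.95 CPM (SD, n = 3) in neuron RNA and 3.25 ± 0.509 CPM (SD, n = 6) in whole CA RNA (log2 difference 2.95, SE 0.15). Cacna1g stood at 261 ± 46.6 CPM (SD, n = 3) against 83.6 ± 7.76 CPM (SD, n = 6), a log2 difference of 1.64 (SE 0.09). Among the beta subunits of sodium channels Scn3b was higher (0.38, SE 0.07), while Scn2b (−0.95, SE 0.08) and Scn4b (−0.62, SE 0.13) were lower. Cacna2d4 (−2.003, SE 0.23), Cacnb3 (−0.59, SE 0.09), Hcn2 (−0.56, SE 0.09) and Cacnb1 (−0.26, SE 0.09) were the others that were lower, and the Cacnb1 call ended in 5 of 25 alternatives: library size alone as the scaling (−0.08), no filter (−0.19), a log2 difference of at least 0.5, and without control neuron replicate 2 (−0.18) or 3 (−0.21).

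**Figure D5:**
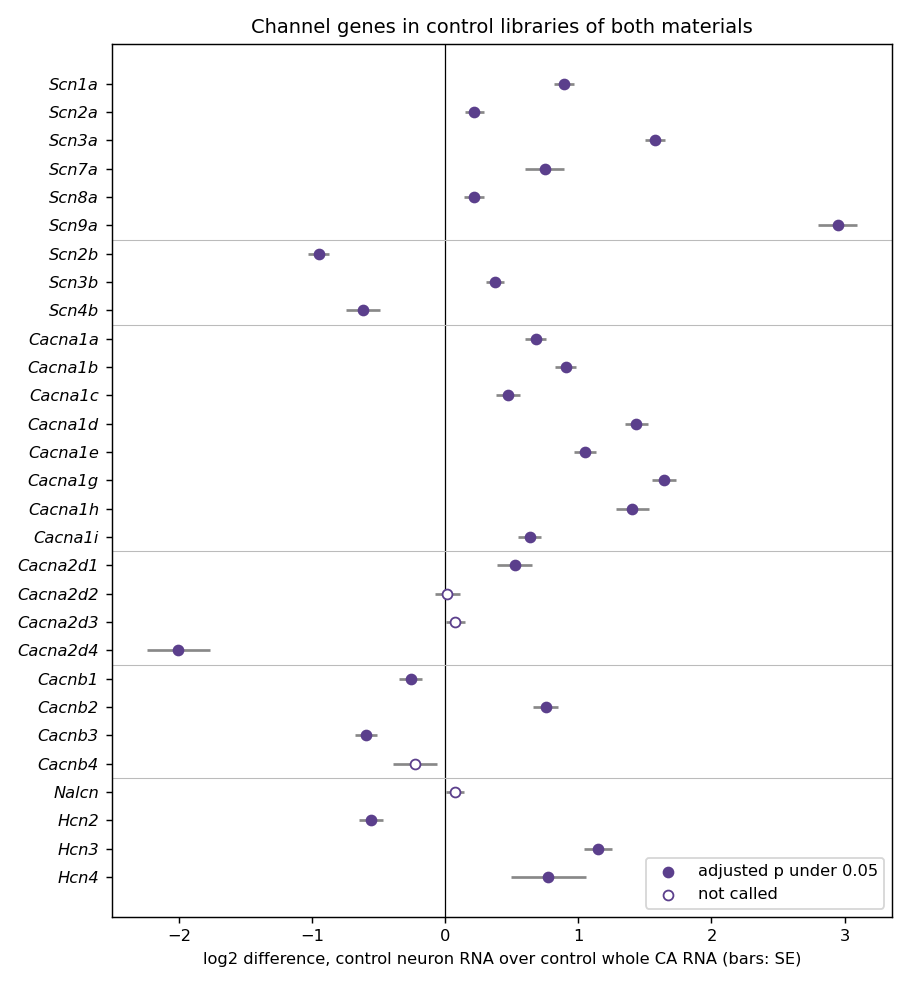
Log2 difference of 29 channel genes between control neuron RNA and control whole CA RNA (x axis; bars are SE), ordered by subunit class with grey lines between classes. Filled points have an edgeR adjusted p under 0.05: the sodium alpha and calcium alpha1 genes lie right of 0, and Cacna2d4 lies farthest left at −2.003.

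The genes that act with these channels were taken from a list of anchoring proteins, FGF homologous factors, Nalcn complex subunits, small GTPases of the RGK group, calcium sensors, active zone scaffolds, pumps and exchangers. Of 33 tested in each material, 2 were lower in both and 0 were higher. Over all genes, 2.19% were lower and 0.887% higher in neuron RNA, and 2.84% and 1.41% in whole CA RNA. The list medians were −0.06 in neuron RNA and −0.03 in the whole CA, beside 0.02 and −0.00272 over all genes. Rem2 encodes an RGK protein that inhibits high-voltage-activated calcium channels. It averaged 10.3 ± 1.08 CPM (SD, n = 3) in cKO and 17.5 ± 2.24 CPM (SD, n = 3) in control neuron RNA (log2 fold change −0.76, SE 0.12, adjusted p = 0.00649 by edgeR), and whole CA RNA gave −0.66 (SE 0.09, adjusted p = 0.00016 by edgeR). Fgf11 encodes an FGF homologous factor, a family that binds the tail of sodium channels. It averaged 41.8 ± 0.26 CPM (SD, n = 3) in cKO and 55.8 ± 3.55 CPM (SD, n = 3) in control neuron RNA (−0.42, SE 0.08, adjusted p = 0.0225 by edgeR), and whole CA RNA gave −0.53 (SE 0.07, adjusted p = 0.000103 by edgeR). The anchor Ank3, the factors Fgf12, Fgf13 and Fgf14 and the Nalcn partners Unc79 and Unc80 were among the 31 not called in either material.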

How the data were processed

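Each deposited RNA file gave raw counts by Ensembl ID for 1 library, not normalized by the authors; the aligner, counter and strand setting are not given in the sources used here, and rows naming no gene held 0 reads. Peak lists, as deposited, gave each peak's length and −log10 q-value, called per library with MACS2 against 1 input per genotype, per the file headers. The build was mm10 (GRCm38), per the submitters' processing notes, which also name SAMtools. RNA used a TruSeq v2 kit and Trizol from whole tissue, per the labels' protocols; how neurons were isolated for RNA is not given there.

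Counts were tested with edgeR 4.0.16 (TMM, filterByExpr, robust quasi-likelihood fit), separately per material; the interaction and the control contrast came from 1 fit of 18 libraries. CPM values are TMM-scaled, and SE is the log2 fold change divided by the root of F. Symbols matched 99.3% of neuron and 98.9% of whole CA IDs. Peak length (log2 of bp plus 100, peaks in at least 3 libraries) was tested with limma 3.58.1; it measures width, not height, and a missing peak is not absence of the mark. Calls are Benjamini-Hochberg adjusted p under 0.05 over all features. DESeq2 1.42.0, other scalings, filters, thresholds, windows, lanes, replicate blocks and left-out replicates were alternatives; the alternatives for H3K9ac, H3K27ac and H3K4me1, lanes of the marks, centring and single left-out libraries in the interaction were chosen after seeing the data. The edgeR and DESeq2 comparisons of genotypes within each material, and limma on H3K4me3 lengths, were run on simulated data. The fit of 18 libraries, the other marks and the alternative designs were not. Genes described by library were the called ones plus, per class, the one with the highest control neuron CPM and the one with the smallest adjusted p. The members and lists were chosen with earlier results of these data known.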

Additional observations from a re-analysis of the deposited data

Results flagged for a closer look

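Single libraries standing apart from the rest of their group were searched for in groups of 4 to 10 libraries, for the channel genes given by library. By Dixon's criterion 5 of 56 groups had such a library, where chance gives about 1 in 20. Cacnb2 RNA in whole CA cKO replicate 3 stood at 113.3 CPM, above 81.8 to 90.4 CPM in the other 5 cKO libraries. The Cacna1e H3K4me3 peak of cKO replicate 2 measured 3627 bp, against 2053 to 2308 bp in the other cKO libraries, and without it the log2 difference was −1.44. For H3K4me1, the Scn7a peak of cKO replicate 3 measured 842 bp (others 1516 to 1653 bp), the Scn2b peak of control replicate 3 measured 4752 bp (others 2121 to 2284 bp) and the Cacna2d1 peak of control replicate 1 measured 2295 bp (others 1112 to 1293 bp). The cause was not tested.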

How the results depend on the processing

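Replicate numbers were not taken to pair samples, since not every pair correlated above 0.1: deviations of same-numbered libraries correlated at −0.0569 to 0.286 in neuron RNA, −0.0635 to 0.203 in whole CA RNA and −0.089 to 0.059 for the marks, and 1 of 3 neuron and 2 of 6 whole CA numbers matched best with their own. With the replicate block, channel genes called higher in neuron RNA went from 1 to 0 (Hcn3 was lost too), those lower in whole CA RNA from 2 to 4 (Scn4b and Cacna1e were gained), and those with longer H3K4me1 from 4 to 1; calls over all genes went from 603 to 345 in neuron RNA, 174 to 2 for H3K9ac, 79 to 0 for H3K27ac and 905 to 364 for H3K4me1, but rose from 654 to 887 in whole CA RNA, where numbers 1 to 4 correlated at 0.108 to 0.203. Leaving out 1 library gave 1 to 4 lower and 0 to 1 higher channel genes in neuron RNA (227 to 578 calls over all genes), 19 to 33 interaction calls of 34, 0 to 1 lower channel genes for H3K9ac (60 to 230 calls), 0 to 1 higher for H3K27ac (13 to 84 calls) and 2 to 4 longer for H3K4me1. DESeq2 called 1 channel gene and 78 genes in the interaction. Over all genes, an adjusted p under 0.1 gave 991 neuron calls, a log2 fold change of at least 0.5 gave 291 of 654 whole CA calls, the lanes 239 and 262, and the H3K4me3 lane 2083 of 3490. Centring each H3K4me3 library called 1 channel gene longer and turned Cacnb4 to 0.000104. The cause of these shifts was not tested, although lanes and left-out libraries hold fewer samples. Scn3b kept its call in all 14 alternatives in neuron RNA, and Scn3b and Cacna1g in all 23 in whole CA RNA. Genes at few reads, such as Cacna2d4 in neuron RNA and Scn4a in both materials, are limited by depth.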
